A study of Mus musculus with 24 samples.

Results

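The genes for the receptors of GABA, glycine and glutamate, the main fast transmitters of the central nervous system, were followed in the developing mouse gut. Members were the protein-coding genes in all 4 deposited tables whose symbols begin with the family stems of these receptors, such as Gabra, Gabbr, Glra, Gria, Grik, Grin or Grm. The rule uses names and no measured value, and it found 48 genes among the 23679 in all 4 tables. They are 15 GABA-A, 2 GABA-A rho, 2 GABA-B, 3 glycine, 4 AMPA, 5 kainate, 2 delta, 7 NMDA and 7 metabotropic glutamate receptor genes. The remaining member matches by its symbol and encodes a scaffold protein, not a receptor subunit. Gabrr3 and Grm2 were listed in 2 tables each and are not members.

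The data are poly-A RNA-seq of 24 guts, taken whole at embryonic day 12.5, with 6 guts for each of 4 genotypes and each sex represented by 3 of them. The genotypes were homozygous for null alleles of both Ret and Sema3d (double null), of Ret alone (Ret null) or of Sema3d alone (Sema3d null), or wildtype. All were on a mix of the C57BL/6, 129/Sv and C3H strains, and the labels do not describe the alleles further. The series tested for a genetic interaction of Ret, a receptor tyrosine kinase that responds to GDNF-family ligands, with Sema3d, a secreted guidance protein, in the enteric nervous system. The guts were whole, so fewer cells of a type and less RNA per cell cannot be told apart. The tables hold the authors' model fits for each gene and no value per gut, so the spread and overlap of the groups cannot be shown gut by gut, and sequencing depth per library is unknown. In place of values per gut, the text gives the fitted level of a gene in each genotype, in normalised counts averaged over the sexes, computed from the coefficients of the authors' deposited table for all 24 guts. These levels carry no error. Log2 coefficients are printed with an error derived from the authors' deviances (the size of the coefficient over the square root of the drop in deviance that its term gives), and a gene was called at a deposited adjusted p below 0.05.

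GABA-A and glycine receptors are chloride channels built of 5 subunits, and GABA-B receptors are G protein-coupled pairs. Glutamate acts on the AMPA, kainate and NMDA channels, which are assemblies of 4 subunits, and on the metabotropic receptors, which are G protein-coupled. Enteric neurons, which arise from neural crest cells that migrate along the gut, are known to carry several of these receptors, and some non-neuronal gut cells carry them too.

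Both targets were checked in the authors' deposited tables. Ret had a log2 coefficient of -10.36 ± 0.29 in double null guts and -8.34 ± 0.24 in Ret null guts, each against wildtype, in the authors' deposited tables. Sema3d had -1.04 ± 0.07 in double null guts and -1.06 ± 0.11 in Sema3d null guts, so its fitted level remained at 48.6% and 47.8% of wildtype in the authors' deposited tables. In Ret null guts Sema3d was called lower too, at -0.27 ± 0.06 or 83.1% of wildtype (adjusted p 8.82e-04), in the authors' deposited table. Ret in Sema3d null guts had -0.19 ± 0.11 and was not called in the authors' deposited table. The tissue label was checked with marker lists. Markers of enteric neurons, smooth muscle, epithelium, endothelium, mesothelium and macrophages were all found in wildtype guts. The 9 enteric neuron markers summed to 561 in double null, 571 in Ret null, 3351 in Sema3d null and 3478 in wildtype guts. All 9 were called lower in double null and in Ret null guts against wildtype, and none was fitted at 0. The 7 markers of crest progenitors and glia summed to 1523 in double null, 1472 in Ret null, 3191 in Sema3d null and 3534 in wildtype guts, with 7 called lower in double null and 6 in Ret null guts. No smooth muscle, interstitial, epithelial, mesothelial or macrophage marker was called in any table.

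In wildtype guts the receptor genes spanned a wide range of levels. Per kilobase of exon, Grik5 stood highest at 207 normalised counts, followed by Gabbr1 at 135, Gria3 at 57.3, Grik3 at 46.3 and Gria4 at 29.2. Grik5 encodes a high-affinity kainate subunit that needs a partner subunit to form a channel, and Gabbr1 encodes the GABA-binding subunit of the GABA-B receptor. Gria3 and Gria4 encode AMPA receptor subunits. At the other end, the glycine receptor alpha subunits Glra2 and Glra3 had 0.0540 and 0.0305 normalised counts per kilobase. Over the 4 genotypes, 12 members had a mean fitted level of at least 100 normalised counts, 18 had at least 50, 16 lay between 10 and 50, and 14 lay under 10. The 6 under 1 were Gabrd, Gabrp, Gabrr1, Glra2, Glra3 and Grm5.

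**Figure D1:**
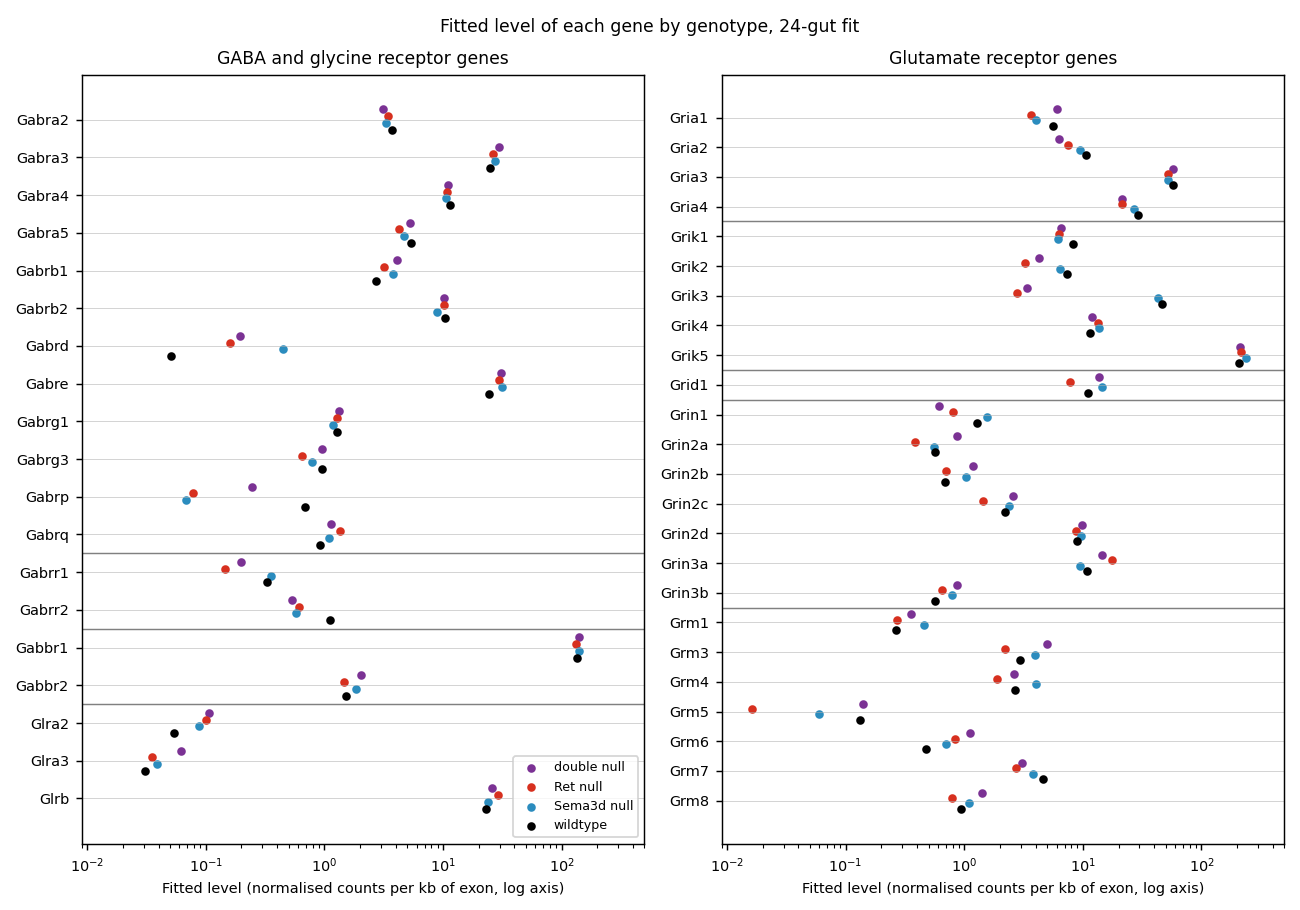
Fitted level of 43 receptor genes in double null, Ret null, Sema3d null and wildtype guts, in normalised counts per kilobase of exon on a log axis, from the 24-gut fit, with GABA and glycine receptor genes on the left and glutamate receptor genes on the right. For most genes the 4 points lie close together; Grik3 stands at 3.38 in double null and 2.78 in Ret null guts, against 46.3 in wildtype guts.

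Guts without Ret were compared with wildtype guts to ask which receptor genes change when Ret is lost. A small group of genes fell in them, among them the kainate receptor genes Grik3 and Grik2. In all, 4 of 48 genes (8.33%) were called lower in double null guts against wildtype in the authors' deposited table, where 1.87% of all genes were called lower. The same 4 of 48 were called lower in Ret null guts against wildtype in the authors' deposited table, where 2.27% of all genes were. None was called higher in either, against 0.231% of all genes in double null and 0.386% in Ret null guts. Both comparisons share the wildtype guts. At an unadjusted p below 0.05, 7 members were lower and 3 higher in double null guts, against 3.99% and 2.72% of all genes. At the same limit 7 were lower and 2 higher in Ret null guts, against 5.47% and 2.96% of all genes. The median log2 coefficient of the members was 0.07 in double null guts (46 genes with a bounded fit) and -0.11 in Ret null guts (47 genes), against medians of 0.00597 and 0.000664 for all genes.

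The largest change with a bounded fit was that of Grik3 (ENSMUSG00000001985, chr4:125490700-125714173, plus strand, GRCm38), which encodes the low-affinity kainate receptor subunit GluK3. Its fitted level was 30.4 normalised counts in double null, 24.9 in Ret null, 385 in Sema3d null and 415 in wildtype guts. Both genotypes without Ret were low, and Sema3d null guts stood near wildtype. In double null guts Grik3 fell with a log2 coefficient of -3.76 ± 0.17, to 7.37% of wildtype, in the authors' deposited table (adjusted p from its deviances 5.55e-111). In Ret null guts the coefficient was -4.06 ± 0.17 (95% interval -4.39 to -3.72), or 6.00% of wildtype, in the authors' deposited table (adjusted p from its deviances 4.89e-120). By size of coefficient it ranked 25 of the 321 genes called lower in double null guts and 24 of the 397 in Ret null guts, among genes at a fitted level of at least 50. In Sema3d null guts it had -0.11 ± 0.18 in the authors' deposited table (95% interval -0.45 to 0.24).

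Grik2, on chromosome 10 (chr10:49094833-49788766, minus strand), encodes GluK2, another low-affinity kainate subunit. It had 56.6 normalised counts in double null, 42.8 in Ret null, 84.1 in Sema3d null and 97.5 in wildtype guts. The fall was smaller than that of Grik3 and stood again in both genotypes without Ret. The coefficient was -0.79 ± 0.17 in double null guts, or 57.9% of wildtype, in the authors' deposited table (adjusted p 4.61e-04). It was -1.19 ± 0.16 in Ret null guts, or 43.8% of wildtype, in the authors' deposited table (adjusted p 1.22e-11).

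The other 3 kainate genes were not called. Grik5 had 1090 normalised counts in double null, 1117 in Ret null, 1238 in Sema3d null and 1068 in wildtype guts. Its coefficients were 0.03 ± 0.07 in double null and 0.06 ± 0.07 in Ret null guts (95% interval -0.07 to 0.20) in the authors' deposited tables. Grik4, the other high-affinity subunit gene, had 0.06 ± 0.15 in double null and 0.21 ± 0.15 in Ret null guts, and Grik1, the third low-affinity one, -0.32 ± 0.18 and -0.38 ± 0.18, in the authors' deposited tables. Summed per kilobase over the 5 genes, the kainate subunit level was 237 normalised counts in double null, 242 in Ret null, 309 in Sema3d null and 280 in wildtype guts. Grik3 made up 1.43% of that sum in double null and 1.15% in Ret null guts, against 13.9% in Sema3d null and 16.5% in wildtype guts. Grik5 made up 89.0% in double null and 89.4% in Ret null guts, against 77.6% in Sema3d null and 73.8% in wildtype guts.

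**Figure D2:**
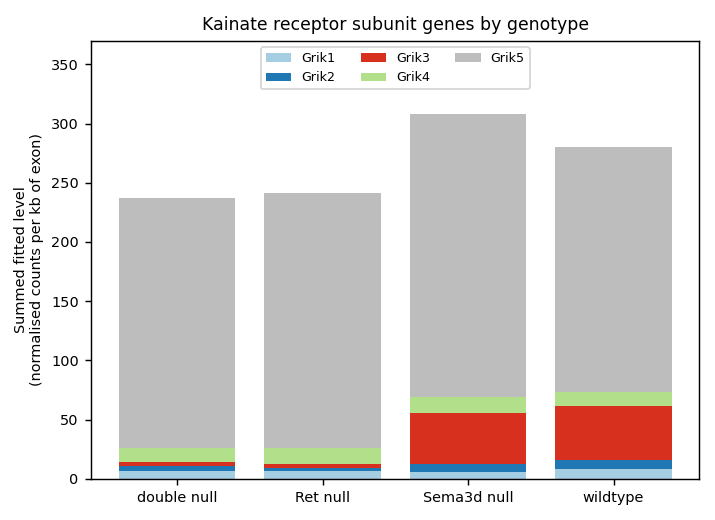
Summed fitted level of the 5 kainate receptor subunit genes in each genotype, in normalised counts per kilobase of exon, stacked by gene, without error. The red Grik3 segment is 1.43% and 1.15% of the bar in double null and Ret null guts, against 13.9% in Sema3d null and 16.5% in wildtype guts, while grey Grik5 is the largest segment in all 4 bars.

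To set the called kainate genes beside the uncalled Grik5, their promoter windows, 250 bases before to 50 after the transcript start, were read from RefSeq (GRCm38.p6). Capitals mark the GC box GGGCGG or its reverse complement CCGCCC, the letters bound by Sp1-type factors. The windows lie at chr4:125490446-125490745 on the plus strand for Grik3, chr10:49788705-49789004 on the minus strand for Grik2 and chr7:25072320-25072619 on the minus strand for Grik5.
Grik3: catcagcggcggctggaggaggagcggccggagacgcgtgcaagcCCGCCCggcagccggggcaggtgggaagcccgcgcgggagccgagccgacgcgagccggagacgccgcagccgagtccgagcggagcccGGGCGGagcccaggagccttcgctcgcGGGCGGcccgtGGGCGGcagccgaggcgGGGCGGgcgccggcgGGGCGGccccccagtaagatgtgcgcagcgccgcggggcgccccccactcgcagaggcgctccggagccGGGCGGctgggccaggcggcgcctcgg
Grik2: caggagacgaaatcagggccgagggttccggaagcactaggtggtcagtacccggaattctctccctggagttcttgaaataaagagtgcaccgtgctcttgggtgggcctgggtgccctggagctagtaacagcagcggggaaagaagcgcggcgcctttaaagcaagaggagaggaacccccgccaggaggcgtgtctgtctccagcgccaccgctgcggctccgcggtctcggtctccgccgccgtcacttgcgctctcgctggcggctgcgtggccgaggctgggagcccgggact
Grik5: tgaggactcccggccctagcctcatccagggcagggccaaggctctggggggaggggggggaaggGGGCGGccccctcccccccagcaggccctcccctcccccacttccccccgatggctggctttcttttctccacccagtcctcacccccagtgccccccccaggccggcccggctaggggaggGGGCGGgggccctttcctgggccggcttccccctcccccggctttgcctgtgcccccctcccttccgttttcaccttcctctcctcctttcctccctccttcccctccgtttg
The Grik3 window held 7 GC boxes and 50 CpG pairs at 82.0% G and C, the Grik2 window 0 GC boxes and 26 CpG pairs at 64.7%, and the Grik5 window 2 GC boxes and 10 CpG pairs at 72.0%. The called genes thus differed from each other in these letters as well as from Grik5. Of the 48 members, 33 were matched in the promoter table, with 41 windows. On either strand, GGGCGG was found in 56.1% of these 41 windows and in 35.7% of all 32851 windows, which had a median of 60.7% and 52.7% G and C. The TATA box TATAAA was found in 12.2% of the members' windows and 13.6% of all. The E-box CAGCTG was in 4.88% and 16.3% in that order, and the homeodomain core TAATTA in 2.44% and 5.29%. The left part of the RE1 element, TTCAGCACC, was found in 0 of the 41 windows and in 0.371% of all. Grik3, Grik2 and Grik5 windows held none of these last 4 motifs.

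Among the GABA-A receptor genes, Gabre, which encodes the epsilon subunit, had 146 normalised counts in double null, 142 in Ret null, 149 in Sema3d null and 116 in wildtype guts. All 3 null genotypes were above wildtype. Its coefficients were 0.34 ± 0.12 in double null, 0.29 ± 0.12 in Ret null and 0.36 ± 0.16 in Sema3d null guts by the authors' deposited tables. The unadjusted p-values were 0.00629 in double null, 0.0129 in Ret null and 0.0241 in Sema3d null guts, and none passed the adjustment (smallest adjusted p 0.213 in the authors' deposited tables). Gabra3, the alpha-3 subunit gene, had 116 normalised counts in double null, 103 in Ret null, 108 in Sema3d null and 98.6 in wildtype guts, and was not called. Its coefficients were 0.24 ± 0.13 in double null and 0.07 ± 0.15 in Ret null guts by the authors' deposited tables. Gabra4, for the alpha-4 subunit, had 67.0 normalised counts in double null, 65.9 in Ret null, 64.8 in Sema3d null and 70.3 in wildtype guts, and these levels lay close together. The rho genes Gabrr1 and Gabrr2, known from the retina, were not called either; Gabrr2 had 1.13 normalised counts in double null and 2.33 in wildtype guts.

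The GABA-B and glycine receptor genes were not called in any genotype. Gabbr1 had 1089 normalised counts in double null, 1025 in Ret null, 1089 in Sema3d null and 1049 in wildtype guts. Its coefficient was 0.06 ± 0.07 in double null guts (95% interval -0.08 to 0.19) and -0.03 ± 0.09 in Ret null guts (95% interval -0.20 to 0.14) in the authors' deposited tables. Gabbr2, the subunit gene for the partner that couples to the G protein, made up the small remainder of the pair: Gabbr1 was 98.6% of their summed level per kilobase in double null, 98.9% in Ret null, 98.7% in Sema3d null and 98.9% in wildtype guts. Among glycine receptor genes the beta subunit gene Glrb, whose product binds the scaffold gephyrin, stood far above the alpha genes in every genotype. Glrb had 120 normalised counts in double null, 137 in Ret null, 111 in Sema3d null and 107 in wildtype guts. Its coefficient in Ret null guts was 0.35 ± 0.16 with an adjusted p of 0.480 in the authors' deposited table.

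No AMPA receptor gene was called, although the intervals of some were wide. Gria3, the highest of the 4, had 572 normalised counts in double null, 518 in Ret null, 514 in Sema3d null and 565 in wildtype guts. Its coefficient was 0.02 ± 0.07 in double null and -0.13 ± 0.07 in Ret null guts by the authors' deposited tables. Gria2, whose subunit limits calcium entry, had 98.1 normalised counts in double null, 117 in Ret null, 146 in Sema3d null and 165 in wildtype guts. It was lowest in double null guts, at -0.75 ± 0.28 with an adjusted p of 0.227 in the authors' deposited table. Gria4 had 135 normalised counts in double null, 136 in Ret null, 172 in Sema3d null and 184 in wildtype guts. Its coefficients were -0.45 ± 0.20 in double null (adjusted p 0.554) and -0.44 ± 0.19 in Ret null guts (adjusted p 0.380) in the authors' deposited tables. The derived error of Gria2 in Ret null guts was 2.93 times the median of genes at a like level, and that of Gria4 1.74 times.

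NMDA receptor genes were not called either. Grin3a, which encodes a glycine-binding subunit, was the highest of the 7 with 178 normalised counts in double null, 217 in Ret null, 116 in Sema3d null and 134 in wildtype guts. Both genotypes without Ret were above wildtype, at 0.41 ± 0.37 in double null and 0.70 ± 0.40 in Ret null guts (adjusted p 0.725) in the authors' deposited tables. Its derived error in Ret null guts was 3.82 times that of genes at a like level. The obligatory subunit gene Grin1 was low throughout, with 5.97 normalised counts in double null, 7.77 in Ret null, 15.2 in Sema3d null and 12.4 in wildtype guts. Its coefficient was -1.06 ± 0.42 in double null guts with an adjusted p of 0.329 in the authors' deposited table, and 13.5% of its exon bases overlap the opposite-strand gene Grin1os. The sources used here do not give the strand setting of the authors' counting. The glutamate-binding subunit gene Grin2b had 29.3 normalised counts in double null, 17.3 in Ret null, 25.7 in Sema3d null and 17.1 in wildtype guts. In double null guts it had 0.78 ± 0.26 with an adjusted p of 0.127 in the authors' deposited table.

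The metabotropic glutamate receptor genes were low and not called. Grm7, a presynaptic receptor that couples to inhibitory G proteins, had the highest wildtype level of its class, with 18.1 normalised counts in double null, 15.95 in Ret null, 22.1 in Sema3d null and 27.2 in wildtype guts. Its coefficient in Ret null guts was -0.78 ± 0.36 with an adjusted p of 0.471 in the authors' deposited table. Grm3 had 15.2 normalised counts in double null, 6.77 in Ret null, 12.0 in Sema3d null and 9.02 in wildtype guts, and 0.78 ± 0.36 in double null guts (adjusted p 0.621) in the authors' deposited table. Grm4 had 0.59 ± 0.32 in Sema3d null guts with an unadjusted p of 0.0642 in the authors' deposited table. Grm3 lies 2.66 Mb from Sema3d, and Grm7 6.58 Mb and Grin2b 17.5 Mb from Ret.

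For the 18 members at a mean level of at least 50, the derived intervals bound what could have been missed. In double null guts the 95% interval of 12 uncalled genes lay within a log2 change of 1 in either direction, and in Ret null guts that of 12. In Sema3d null guts it did for 17, with Grid1 the exception. Within 0.5 in either direction lay the intervals of 10 genes in double null, 7 in Ret null and 10 in Sema3d null guts. The tables used here give no p for sex; among these 18 genes the sex coefficient largest in size was that of Grin3a, at -0.39 on the log2 scale (male minus female) in the authors' deposited table.

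**Figure D3:**
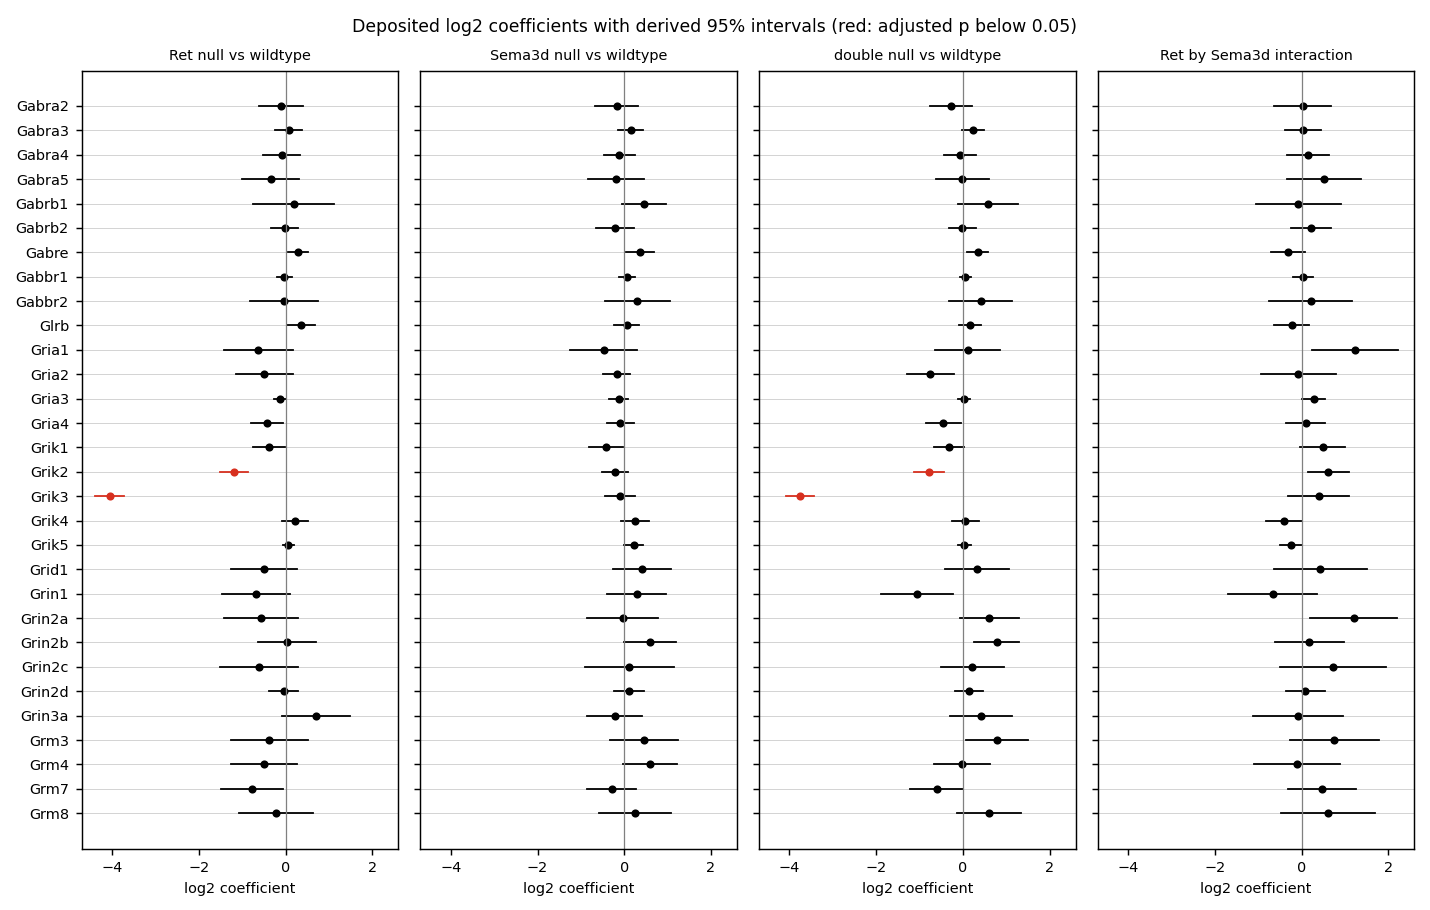
Log2 coefficients with 95% derived intervals of 30 receptor genes at a mean level of at least 10, in the authors' deposited tables, with a panel for each null genotype against wildtype and the last for the interaction. Red marks an adjusted p below 0.05, which Grik3 and Grik2 had in both genotypes without Ret and no plotted gene had in the other panels.

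The loss of Sema3d by itself was examined in Sema3d null guts, set against wildtype. None of the 48 genes was called lower or higher in the authors' deposited table, where 0.0202% of all genes were called in each direction. At an unadjusted p below 0.05, 3 members were lower, Grik1 among them, and 1 was higher (Gabre), against 2.35% and 2.19% of all genes. Grik1 had 44.1 normalised counts in double null, 42.2 in Ret null, 41.2 in Sema3d null and 55.0 in wildtype guts. All 3 null genotypes lay below wildtype, and in Sema3d null guts the coefficient was -0.42 ± 0.20 with an unadjusted p of 0.0356 in the authors' deposited table. The delta receptor gene Grid1 had 82.0 normalised counts in double null, 46.0 in Ret null, 86.3 in Sema3d null and 65.3 in wildtype guts and was not called.

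The interaction term asks whether the double null level departs from the sum of both single null effects on the log2 scale. None of the 48 genes was called in the authors' deposited table, where 0.0343% of all genes had a called negative term and 0.129% a called positive one. At an unadjusted p below 0.05, 8 members (16.7%) had a positive term and 0 a negative one, against 4.07% and 2.72% of all genes. Gria1, Gria3, Grik2 and Grin2a were among the 8. So was Grm5, whose mean level under 1 normalised count allows no statement on a change. A positive term means a higher level in double null guts than the sum of the single null effects gives. Grik2 had 0.62 ± 0.24 with an adjusted p of 0.505 in the authors' deposited table. Gria1 had 1.23 ± 0.51 (adjusted p 0.556) and Grin2a 1.203 ± 0.51 (adjusted p 0.592) in the authors' deposited table. Grik3 had 0.40 ± 0.36 with an adjusted p of 0.891 in the authors' deposited table. In sums of the 24-gut coefficients, double null guts differed from Ret null guts by a log2 difference of 0.29 for Grik3 and 0.40 for Grik2. They differed from Sema3d null guts by -3.66 for Grik3 and -0.57 for Grik2. These sums have no error, since no covariance of the terms was used.

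Partner genes of the receptors were counted in 4 lists. Of all genes, 1.87% were called lower in double null guts and 2.27% in Ret null guts. Called higher were 0.231% of all genes in double null and 0.386% in Ret null guts. Of the genes for GABA and glycine synthesis, transport and breakdown, 1 of 12 tested was called lower in double null and 1 of 11 in Ret null guts, in both the glycine-cleaving enzyme gene Gldc. Gldc had 126 normalised counts in double null, 122 in Ret null, 193 in Sema3d null and 184 in wildtype guts, with coefficients of -0.55 ± 0.11 in double null and -0.59 ± 0.11 in Ret null guts by the authors' deposited tables. The GABA-making enzyme gene Gad1 was very low, at 0.303 normalised counts in double null, 0.841 in Ret null, 1.81 in Sema3d null and 1.37 in wildtype guts. Of 13 genes for glutamate synthesis, vesicle loading and uptake, 0 were called in double null guts and 1 was lower in Ret null guts.

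Of 17 genes for scaffolds and auxiliary subunits of inhibitory receptors and chloride transporters, 2 were lower in double null and 3 in Ret null guts. The shares of all genes called lower were 1.87% and 2.27% in that order. Lhfpl4, an auxiliary protein of GABA-A receptors, had 14.9 normalised counts in double null, 16.1 in Ret null, 53.8 in Sema3d null and 49.7 in wildtype guts. Its coefficients were -1.74 ± 0.24 in double null and -1.62 ± 0.23 in Ret null guts by the authors' deposited tables. Iqsec3, a gephyrin-binding exchange factor, had 0.329 normalised counts in double null, 0.829 in Ret null, 18.1 in Sema3d null and 19.9 in wildtype guts. Its log2 coefficients were -5.92 ± 0.65 in double null and -4.60 ± 0.55 in Ret null guts by the authors' deposited tables. Kctd12, an auxiliary subunit of GABA-B receptors, was lower in Ret null guts at -0.56 ± 0.08 and was not called in double null guts at -0.22 ± 0.08 (adjusted p 0.157) in the authors' deposited tables. Its interaction term, 0.52 ± 0.13 with an adjusted p of 0.0486 in the authors' deposited table, was the only one called among the 4 lists. Over all genes, 0.129% had a called positive term. Gephyrin itself (Gphn) and the chloride transporter genes Slc12a2 and Slc12a5 were not called, at 0.03 ± 0.08, -0.05 ± 0.05 and 0.09 ± 0.13 in double null guts by the authors' deposited table.

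Of 36 auxiliary and scaffold genes of glutamate receptors, 5 were lower and 1 higher in double null guts, against 1.87% and 0.231% of all genes. In Ret null guts 6 were lower and 0 higher, against 2.27% and 0.386% of all genes. Dlg2, a postsynaptic scaffold of the PSD-95 family, had 48.5 normalised counts in double null, 28.6 in Ret null, 121 in Sema3d null and 132 in wildtype guts. Its log2 coefficients were -1.44 ± 0.14 in double null and -2.20 ± 0.16 in Ret null guts by the authors' deposited tables. Cacng4, an AMPA receptor auxiliary subunit, had -0.65 ± 0.07 in double null and -0.80 ± 0.07 in Ret null guts, and the scaffold gene Dlgap3 -1.16 ± 0.19 in double null and -1.05 ± 0.18 in Ret null guts by the authors' deposited tables. Dlgap2 had -1.82 ± 0.44 in double null and -1.98 ± 0.45 in Ret null guts by the authors' deposited tables. Cacng2 was fitted at about 0 in both genotypes and at 2.74 normalised counts in wildtype guts. Dlgap1 was called only in Ret null guts, at -1.35 ± 0.36, and had -1.22 ± 0.37 (adjusted p 0.0534) in double null guts by the authors' deposited tables; a difference between them was not tested. Shank3 was higher in double null guts at 0.21 ± 0.06 in the authors' deposited table. In Sema3d null guts no gene of the 4 lists was called, where 0.0202% of all genes were called in each direction.

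The receptor genes were set beside markers of the cell types of the gut. In double null guts the 9 enteric neuron markers lay between 2.32% and 48.9% of wildtype, and in Ret null guts between 2.34% and 52.2%. Grik3 had 7.37% and Grik2 57.9% of wildtype in double null guts, and Grik3 had 6.00% and Grik2 43.8% in Ret null guts. Grik3 thus lay within the range of the neuron markers in both genotypes, and Grik2 lay within it in Ret null guts and above it in double null guts. The 7 markers of crest progenitors and glia lay between 7.58% and 66.6% of wildtype in double null guts and between 7.30% and 68.2% in Ret null guts. Grik2 lay within that range in both genotypes, and Grik3 lay just below it in both. The part of the neuron and glia markers in these results was not tested. The 4 endothelial markers were all called higher in double null guts, where their levels summed to 5299 normalised counts, against 4433 in wildtype guts. Of the list for dorsal root ganglion and sympathetic neurons, Th and Dbh were called lower in double null and Ret null guts, and markers of the central nervous system, pancreas and skeletal muscle were not called.

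**Figure D4:**
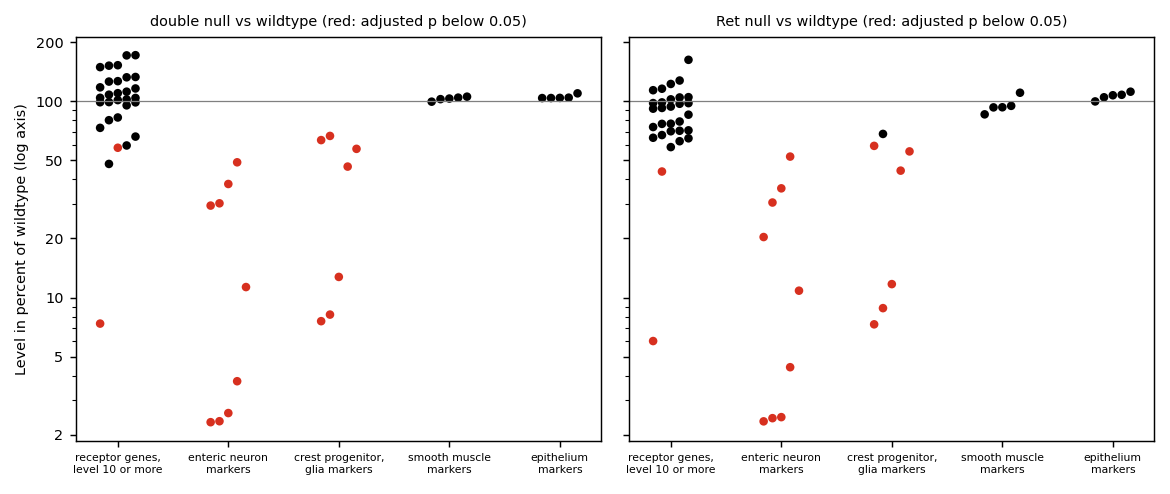
Level in percent of wildtype (log axis) of 30 receptor genes at a mean level of at least 10 and of 4 marker lists, with double null guts on the left and Ret null guts on the right, 1 point per gene and red for an adjusted p below 0.05. The receptor genes gather around 100% with Grik3 apart at 7.37% and 6.00%, while all 9 enteric neuron markers lie at or below 52.2% and the smooth muscle and epithelial markers near 100%.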

How the data were processed

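Poly-A RNA of 24 guts was made into stranded libraries and read as 100 bp pairs by Illumina HiSeq, per the labels' protocols. DESeq 1.24.0, RSEM 1.2.31, STAR (no version given), Trimmomatic 0.36 and FastQC 0.11.5 are named without roles, with GRCm38 (mm10), per the submitters' processing notes. The 4 deposited tables hold log2 coefficients, deviances of the full model and of one lacking the tested term (used as a score of fit) and p-values with adjusted p-values, per the file headers. Each null genotype is set against wildtype in a table of its own (12 guts, with a term for sex), and the last table fits all 24 guts with an interaction term. The headers name no log base; base 2 was used, since it put the sum of the wildtype levels at 11526546 to 11950030 normalised counts over the tables. In the Ret null table the names of the symbol and biotype columns are swapped, and they were read by content.

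Each deposited p-value was the upper tail of a chi-square variable with 1 degree of freedom at the difference of deviances, within 4.91e-09, and adjusted p-values were the Benjamini-Hochberg ones over each table. Where a deposited p is written as 0, the adjusted p was recomputed from the deviances. The derived error is the size of the coefficient divided by the square root of that difference, and the 95% interval follows from it. Both were tried on simulated counts, fitted with the same known spread that was used to make them. That trial cannot show how they hold where the spread is estimated, as in the authors' model. A coefficient beyond 15 in size was read as a fit at about 0 in a group and given no fold. Levels per kilobase used GENCODE M21 exon lengths (GRCm38). No count test, replicate block or left-out gut was possible from such tables, and p-values rest on the spread between guts as the authors' model estimated it. The error of genes at a like level is the median over genes at 0.8 to 1.25 times the level. Promoters came from RefSeq (GRCm38.p6).

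The members and lists were chosen with earlier results of these data known. Named with full values are each receptor gene called in any table and, in each class, the gene with the highest wildtype level and those with the smallest p in each table; of the partner lists, up to 6 called genes each. A few members are left out of the text and figures, while counts and medians cover all members. Gphn, Slc12a2, Slc12a5, Gad1, Gabra3, Gabra4, Grik4, Grin1 and the promoter of Grik5 are named outside this rule and were chosen after their values were seen. Python 3.11.15, pandas 2.3.3, scipy 1.17.1 and matplotlib 3.10.9 were used.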

Additional observations from a re-analysis of the deposited data

How the results depend on the processing

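The calls were repeated at adjusted p below 0.01 and below 0.10, over protein-coding genes alone, over genes at a level of at least 50, and without unbounded fits. The number of receptor genes called lower stayed between 3 and 4 in double null guts and between 3 and 4 in Ret null guts, and the number called in Sema3d null guts stayed at 0. For the interaction, 1 receptor gene was called with a positive term at adjusted p below 0.10, against 0 at 0.05. The 54 other recomputed counts and medians and the 271 recomputed values of single genes kept their direction, where called, and their side of the threshold. Adjustment over genes at a level of at least 50 leaves the members below it untested. The median of the members in Sema3d null guts was 0.01 with the 24-gut coefficients, against -0.01 with the 12-gut ones; it has no test. No paired analysis was possible because the tables hold no value per gut, and leaving out single guts was not possible for the same reason. Low levels limit the 14 members under 10 normalised counts, whose fitted levels carry no error; the 6 under 1 allow no statement on a change.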
